A study of Mus musculus with 18 samples.

Results

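Macrophages grown from mouse bone marrow were compared between Ldha knockout (KO) and wild-type (WT) animals after 24 h in interleukin 4 (IL-4). The comparison rests on 6 of the 18 RNA sequencing libraries of the series, chosen by their labels: KO IL-4 replicates 1 to 3 and WT IL-4 replicates 1 to 3. By their codes the libraries of a group came from separate animals, 3 KO and 3 WT. Marrow of both genotypes was cultured for 7 days with macrophage colony-stimulating factor (30 ng/mL) and 15% serum before IL-4 was added. Libraries of the same 6 animals left untreated, or given interferon gamma (IFN-gamma) for 24 h, supply values to set beside those of IL-4, and they also enter the filter on low genes and the pooled estimate of spread. The sources used here do not give how Ldha was deleted, the promoter and cell type that drive any Cre recombinase, whether the WT animals carry it, the animals' strain, age and sex, or the IL-4 dose.

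IL-4 binds a receptor on macrophages whose Janus kinases phosphorylate the transcription factor STAT6, which then switches on genes of alternative activation such as Arg1, Retnla, Chil3 and Mrc1. Ldha encodes the A chain of lactate dehydrogenase, which reduces pyruvate to lactate at the end of glycolysis and in doing so turns NADH back into NAD+. NRF2, a transcription factor held down by KEAP1 until oxidants or electrophiles modify that protein, drives genes that make glutathione, NADPH and detoxifying enzymes.

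Values are normalized counts, that is, reads per gene divided by one size factor per library. Changes are log2 fold changes ± SE, KO minus WT, from limma on log2(normalized count + 1), a scale that understates changes of low genes. Benjamini-Hochberg adjustment ran over 14288 genes, and a gene with an adjusted p under 0.05 is said to have risen, fallen or been called. The 6 libraries held between 9.77 M reads (WT replicate 2) and 49.5 M reads (WT replicate 3), and normalized columns summed to 29.7 to 32.0 M. The share of mitochondrial reads was 1.50 to 1.92%. The first principal component of the IL-4 libraries, with 40.2% of the variance over 10850 genes, placed the KO libraries at 13.9 to 19.2 and the WT libraries at -30.6 to -8.41. WT replicate 2, the library with the fewest reads, stood farthest out on it. The second component, with 34.4%, did not separate the genotypes. It placed the KO libraries at -18.3 to 8.90 and the WT libraries at -19.0 to 30.6, with WT replicate 1 farthest out. The macrophage markers Cd68 (43467 to 58943) and Csf1r (79818 to 91977) were high in all 6 libraries, and neither was called (adjusted p = 0.318 and 0.499). This pair was picked after its values were seen: of the 27 macrophage identity genes tested 10 were lower in KO and none higher, as described further on. No count was listed for the neutrophil genes Ly6g, Mpo and Elane or the lymphocyte gene Cd3e. Summed over 6 neutrophil markers the level was 266 to 393 in WT and 423 to 756 in KO libraries, and over 4 adipocyte markers 4137 to 5226 and 2979 to 3999. Sums of monocyte, dendritic cell, mast cell, erythroid and endothelial markers overlapped between the groups. The monocyte sums (3263 to 7857) include the IL-4 marker Chil3, itself at 2316 to 7005. In untreated cells, where Chil3 was near 0, the monocyte sums were 360 to 441 in WT and 781 to 1149 in KO libraries. Of 8 dendritic cell markers tested 1 was called, Ccr7, which rose, and their median change was 0.90. The part of any of these cell types in the results was not tested.

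The targeted gene was examined first. Ldha (ENSMUSG00000063229.15, GRCm38 chromosome 7, 46841475 to 46855627) stood at 22901, 23518 and 25145 in the WT libraries and at 4105, 4218 and 4226 in the KO libraries. The KO libraries were close to one another and far below the lowest WT library, a change of -2.51 ± 0.0761 (adjusted p = 3.7e-13). KO cells thus kept 17.5% of the WT Ldha counts, and whether this RNA was full length, or confined to a fraction of cells, was not tested. In these bulk libraries fewer cells of a type and less RNA per cell cannot be told apart. Ldhb, which encodes the B chain of lactate dehydrogenase, stood at 275, 197 and 264 in WT and at 192, 143 and 188 in KO libraries. The groups did not overlap, but the change did not pass (-0.49 ± 0.176, adjusted p = 0.107). It passed without WT replicate 2 (adjusted p = 0.0396, limma) and with DESeq2 (0.0327).

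Lyz2, which encodes lysozyme M and is among the most abundant transcripts of a macrophage, was all but missing from the KO libraries. It stood at 380103, 359961 and 350107 in WT and at 503, 518 and 426 in KO cells, 0.133% of the WT level. The change of -9.56 ± 0.102 (adjusted p = 1.4e-20) was larger than that of any other gene called. Loss of Ldha, loss of Lyz2 and any other difference between the KO and WT animals cannot be told apart in what follows.

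Across all genes 941 were called under IL-4, 494 higher and 447 lower in KO, which is 6.59% of the genes tested (3.46% higher and 3.13% lower). Of these, 859 were protein coding and 276 changed at least 2-fold, 206 upward and 70 downward. The median size of a called change was 0.60, and the median over all genes tested was 0.01. In 917 of the 941 the KO and WT libraries did not overlap, as was the case for 20.1% of all genes tested. The count rests in part on the spread pooled over all 18 libraries: with the 6 IL-4 libraries alone limma called 128 genes, 126 of them among the 941, and without KO replicate 1 it called 497. Calls of named genes lost in a fit of the IL-4 libraries alone are given with those genes, and counts of lists beside the list. Every list count below is to be read beside the 3.46% higher and 3.13% lower over all genes.

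**Figure D1:**
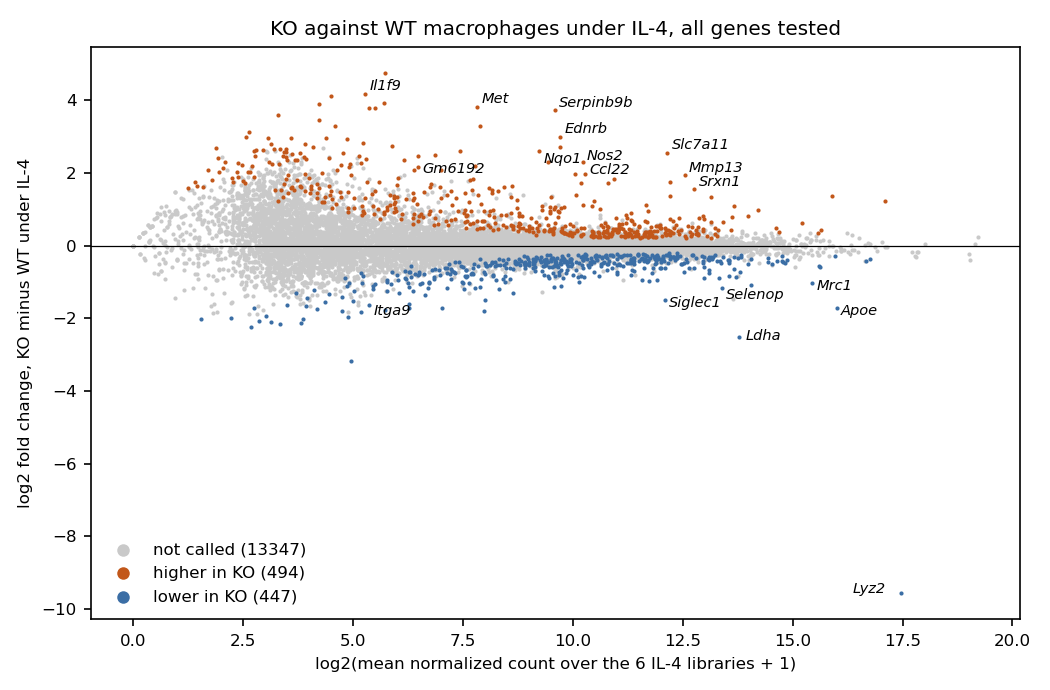
Each point is a gene tested, with the log2 mean normalized count over the 6 IL-4 libraries on the x axis and the log2 fold change, KO minus WT, on the y axis. Orange points (494) were higher and blue points (447) lower in KO. Lyz2 stands apart at the bottom, and 206 of the 276 changes of at least 2-fold were increases.

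The group with the most increases was that of NRF2 targets. Of 33 listed genes tested, 19 rose (57.6%, against 3.46% of all genes), none fell and 14 did not pass, with a median change of 0.68 against 0.01 over all genes. Leaving out any single library left 18 or 19 of them called, the IL-4 libraries alone 15, and the IL-4 libraries alone without WT replicate 2 left 8. The list spans glutathione synthesis and recycling, NADPH supply, peroxide removal and quinone reduction. Promoter windows were at hand for 16 of these 19 genes, and 5 of the 16 carried the core of the antioxidant response element, to which NRF2 binds, in the 250 bases before the transcription start. They are shown because their genes moved together. Sequences are from RefSeq (GRCm38.p6), read 5′ to 3′ along the gene, with the bases that match TGACNNNGC, or its reverse complement, in capitals.
Gclm, chr3:122245307-122245556, plus strand: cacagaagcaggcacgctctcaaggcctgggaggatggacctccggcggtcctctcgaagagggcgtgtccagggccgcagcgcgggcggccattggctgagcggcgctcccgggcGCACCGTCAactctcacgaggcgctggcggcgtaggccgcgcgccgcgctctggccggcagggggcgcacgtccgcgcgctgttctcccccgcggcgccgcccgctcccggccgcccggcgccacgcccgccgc
Prdx1, chr4:116685349-116685598, plus strand: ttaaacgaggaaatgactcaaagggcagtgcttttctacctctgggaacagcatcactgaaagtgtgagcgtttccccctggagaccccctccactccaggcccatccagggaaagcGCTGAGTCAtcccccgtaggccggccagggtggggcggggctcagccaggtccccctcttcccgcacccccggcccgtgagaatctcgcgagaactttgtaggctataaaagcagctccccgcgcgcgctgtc
Txnrd1, chr10:82858956-82859205, plus strand: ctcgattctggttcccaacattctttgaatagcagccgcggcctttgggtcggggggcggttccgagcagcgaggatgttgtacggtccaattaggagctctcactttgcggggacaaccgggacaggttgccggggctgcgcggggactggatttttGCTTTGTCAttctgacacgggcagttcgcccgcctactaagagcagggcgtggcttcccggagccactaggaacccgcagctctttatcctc
Gsta3, chr1:21240335-21240584, plus strand: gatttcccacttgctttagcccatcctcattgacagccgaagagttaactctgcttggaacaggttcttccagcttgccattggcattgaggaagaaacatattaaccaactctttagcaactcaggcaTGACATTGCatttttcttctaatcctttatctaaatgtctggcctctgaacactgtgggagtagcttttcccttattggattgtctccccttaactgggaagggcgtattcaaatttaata
G6pdx, chrX:74428881-74429130, minus strand: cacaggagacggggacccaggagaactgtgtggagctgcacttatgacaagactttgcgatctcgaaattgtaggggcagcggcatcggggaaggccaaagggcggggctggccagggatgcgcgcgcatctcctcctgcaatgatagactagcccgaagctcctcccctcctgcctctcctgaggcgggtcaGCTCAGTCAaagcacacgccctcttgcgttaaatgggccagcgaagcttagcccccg

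The matches began 134, 133, 92, 121 and 57 bases before the start of Gclm, Prdx1, Txnrd1, Gsta3 and G6pdx. In Gsta3 the element read along the gene's strand, and in the other 4 genes its reverse complement did. Searched on both strands, the element was found in 5 of 21 windows of called NRF2 targets (23.8%) and in 11.7% of the windows of all tested genes. Over all NRF2 targets tested, called or not, it was found in 7 of 36 windows (19.4%). It was found in 13.7% of the windows of genes that rose and in 13.1% of those of genes that fell. A window was at hand for 10231 of 14286 tested gene symbols, some genes have several, and a match describes the letters only.

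Among the 19 that rose were genes of glutathione synthesis and recycling. Gclc, the catalytic chain of the enzyme that starts glutathione synthesis, stood at 872, 859 and 926 in WT and at 1774, 1783 and 2053 in KO libraries (1.08 ± 0.0847, adjusted p = 5.17e-07). Its modifier chain Gclm, whose promoter is shown above, went from 2672, 1921 and 2014 to 7749, 6353 and 7889 (1.74 ± 0.141, adjusted p = 7.09e-07). In both genes every KO library lay above every WT library. Slc7a11, which imports cystine for glutathione, stood at 2523, 790.2 and 1038 in WT and at 7287, 6191 and 9382 in KO libraries (2.56 ± 0.341, adjusted p = 0.000214). WT replicate 1 was the highest of the WT libraries and still below all KO libraries. Glutathione reductase (Gsr), which recycles the oxidized form, stood at 765, 718 and 801 in WT and 1749, 1578 and 1629.8 in KO libraries (1.12 ± 0.0677, adjusted p = 2.62e-08), the smallest adjusted p after Lyz2 and Ldha. The glutathione transferase Gsta3 was low, at 57.9, 32.8 and 20.6, in WT and at 211, 172 and 203 in KO libraries (2.48 ± 0.403, adjusted p = 0.00126).

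Others of the 19 act on peroxides and quinones. Srxn1, which repairs overoxidized peroxiredoxins, stood at 4095, 3039 and 3499 in WT and at 11144, 9387 and 10409 in KO libraries (1.55 ± 0.109, adjusted p = 1.78e-07). The peroxiredoxin gene Prdx1 went from 31618, 35243 and 34311 to 102573, 76172 and 83533 (1.36 ± 0.114) and catalase (Cat) from 9081, 7846 and 7796 to 18078, 16031 and 18706 (1.10 ± 0.0936), with adjusted p = 1.1e-06 and 1.4e-06. No KO library of these 3 genes overlapped a WT library. Nqo1, a quinone reductase often used to read NRF2 activity, showed the largest increase in the list. It stood at 196, 151 and 157 in WT and at 1142, 851 and 1091 in KO libraries (2.61 ± 0.257, adjusted p = 9.37e-06). Smaller increases were seen in the thioredoxin reductase gene Txnrd1 (0.80 ± 0.117) and in Hmox1, which breaks down haem (0.75 ± 0.104, highest adjusted p of the pair 0.000473). The increase of the list was not particular to IL-4. In untreated cells 19 of the 33 genes were higher in KO and none lower, with a median of 0.52. Under IFN-gamma 19 were higher and 4 lower, with a median of 0.44. Over all genes 1.98% were called in untreated cells and 27.9% under IFN-gamma.

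**Figure D2:**
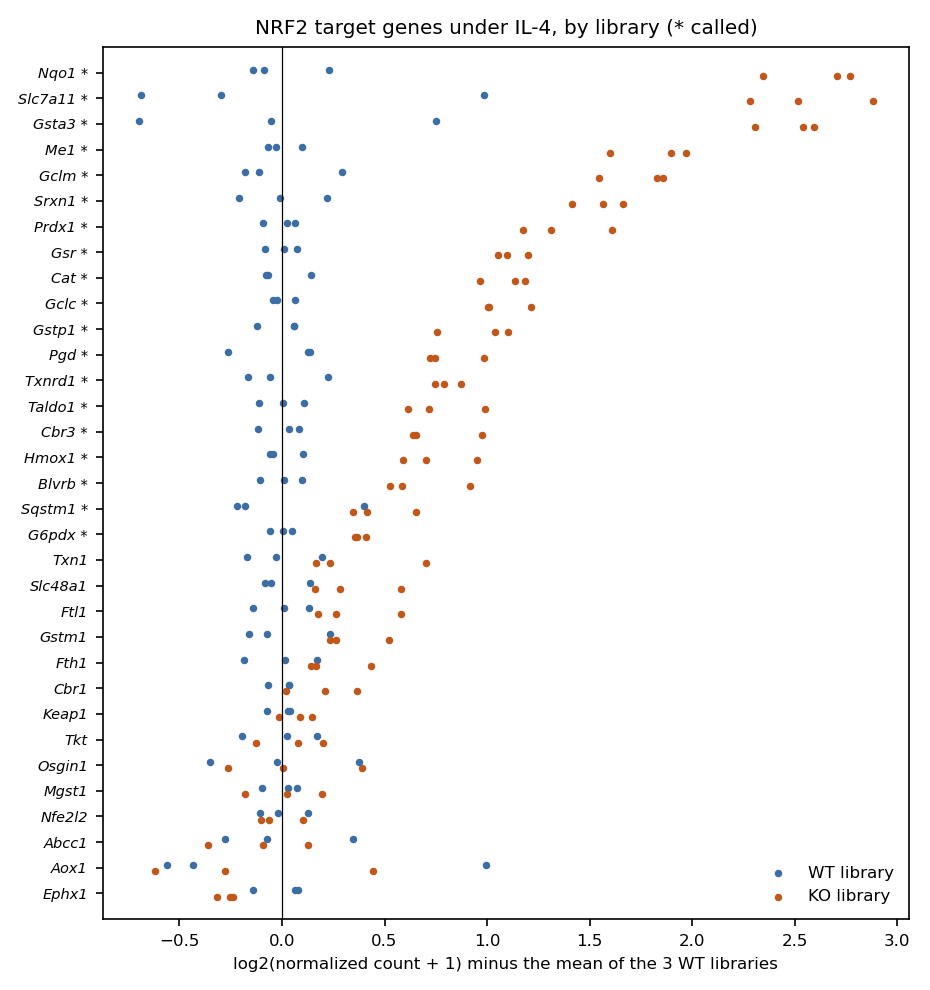
Each row is an NRF2 target tested under IL-4, and each point is 1 library, plotted as log2(normalized count + 1) minus the mean of the 3 WT libraries. Blue points are WT and orange points KO libraries, and asterisks mark the 19 called genes, which all lie to the right. In Sqstm1 a WT library reaches into the KO range, and the genes at the bottom overlap.

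NADPH, which glutathione reductase consumes, is supplied by malic enzyme and the pentose phosphate pathway. Malic enzyme (Me1) stood at 87.4, 98.4 and 90.0 in WT and at 345, 279.9 and 363 in KO libraries (1.82 ± 0.128, adjusted p = 1.78e-07). Of 8 pentose phosphate genes tested 3 rose, 1 fell and 4 did not pass, with a median of 0.05. Pgd, an NADPH-producing dehydrogenase, went from 9719, 12846 and 12733 to 23089, 19588 and 19214 (0.82 ± 0.106, adjusted p = 0.000184). The transaldolase gene Taldo1 rose by 0.77 ± 0.106 and G6pdx, the entry enzyme, by 0.38 ± 0.067 (highest adjusted p = 0.00254). The gene that fell was Shpk, a sedoheptulose kinase (-0.60 ± 0.14, adjusted p = 0.0152, and 0.0751 without KO replicate 2). Pgd, Taldo1 and G6pdx are also on the NRF2 list. Fitted on the IL-4 libraries alone, G6pdx (adjusted p = 0.0768) and Shpk (0.200) did not pass.

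Genes of the amino acid stress response, which the factor ATF4 drives when amino acids run short, also leaned upward. Of 30 tested 8 rose (26.7%, against 3.46% of all genes), none fell and 22 did not pass, with a median of 0.28. Slc7a11, 1 of the 8, is also on the NRF2 list. With the IL-4 libraries alone 4 rose. Atf5, a target and relative of ATF4, stood at 2642, 2728 and 2589 in WT and at 7519.6, 5905 and 6965 in KO libraries (1.35 ± 0.13, adjusted p = 6.92e-06). Atf5 lies on chromosome 7 within 5 Mb of Ldha. Phgdh, the first enzyme of serine synthesis, went from 514, 393 and 340.1 to 1093, 856 and 1169 (1.33 ± 0.166, adjusted p = 0.000127). The Atf4 transcript itself rose by 0.50 ± 0.0836 (adjusted p = 0.00165), and none of these 3 genes had a KO library within the WT range. The CARE motif of ATF4 (TTGCATCA, both strands) was rare. It was found in 7 of 452 windows of genes that rose (1.55%) and 5 of 475 of genes that fell (1.05%). Over all tested genes it was found in 75 of 13010 windows (0.576%), and over the genes of this list that rose in 1 of 8.

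Sugar and pyruvate genes moved in several directions. In glycolysis, with Ldha left out, 3 of 21 genes rose, 1 fell and 17 did not pass, with a median of 0.13. The glucose transporter gene Slc2a1 stood at 2483, 2219.7 and 2514 in WT and at 3704, 3071 and 3525 in KO libraries (0.51 ± 0.0917, adjusted p = 0.00277). Pfkfb4, whose enzyme sets the level of a phosphofructokinase activator, was lower in every KO library, at 2141, 2224 and 2236 against 3331, 2767 and 3343 (-0.51 ± 0.0765, adjusted p = 0.000616). Among genes of lactate and pyruvate handling 1 of 19 rose, 1 fell and 17 did not pass. The riser was Pcx, which carboxylates pyruvate to oxaloacetate, at 99.4, 62.3 and 119 in WT and 242, 178 and 267 in KO libraries (1.31 ± 0.203, adjusted p = 0.000793). Pdk2, a kinase that shuts pyruvate dehydrogenase, fell from 502, 397 and 434 to 249, 227 and 228 (-0.91 ± 0.111, adjusted p = 9.94e-05). The other glycolytic increases were Pkm, pyruvate kinase (0.42 ± 0.11, adjusted p = 0.0287), and the transporter gene Slc2a3 (0.56 ± 0.149, adjusted p = 0.0333), and both depended on single libraries. Without KO replicate 2 the glycolytic genes that rose numbered 1. Pkm did not pass without KO replicate 1 (0.125), KO replicate 2 (0.0629) or WT replicate 1 (0.105), nor Slc2a3 without KO replicate 2 (0.11), KO replicate 3 (0.0767), WT replicate 2 (0.0981) or WT replicate 3 (0.0516). With the IL-4 libraries alone adjusted p was 0.0777 for Slc2a1, 0.0694 for Pfkfb4, 0.105 for Pcx, 0.253 for Pkm and 0.181 for Slc2a3.

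Few mitochondrial genes were called. In the TCA cycle and itaconate list 1 of 26 genes rose and 25 did not pass. That gene was Acod1, which makes the immune metabolite itaconate, at 7348, 3964 and 4429 in WT and 10567, 13723 and 14213 in KO libraries (1.33 ± 0.206, adjusted p = 0.000792, and 0.0528 with the IL-4 libraries alone). Of 71 nuclear genes of the respiratory chain 1 rose, Cycs, which encodes cytochrome c (0.55 ± 0.115, adjusted p = 0.00814, and 0.200 with the IL-4 libraries alone), and 65 of the 71 had a change above 0, with a median of 0.14. That count of 1 became 8 without KO replicate 3 and 4 without WT replicate 2. None of the 7 mitochondrially encoded genes and none of the 27 genes of fatty acid oxidation was called, with medians of 0.07 and -0.07. Leaving out single libraries gave at most 1 call in each direction in either list.

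**Figure D3:**
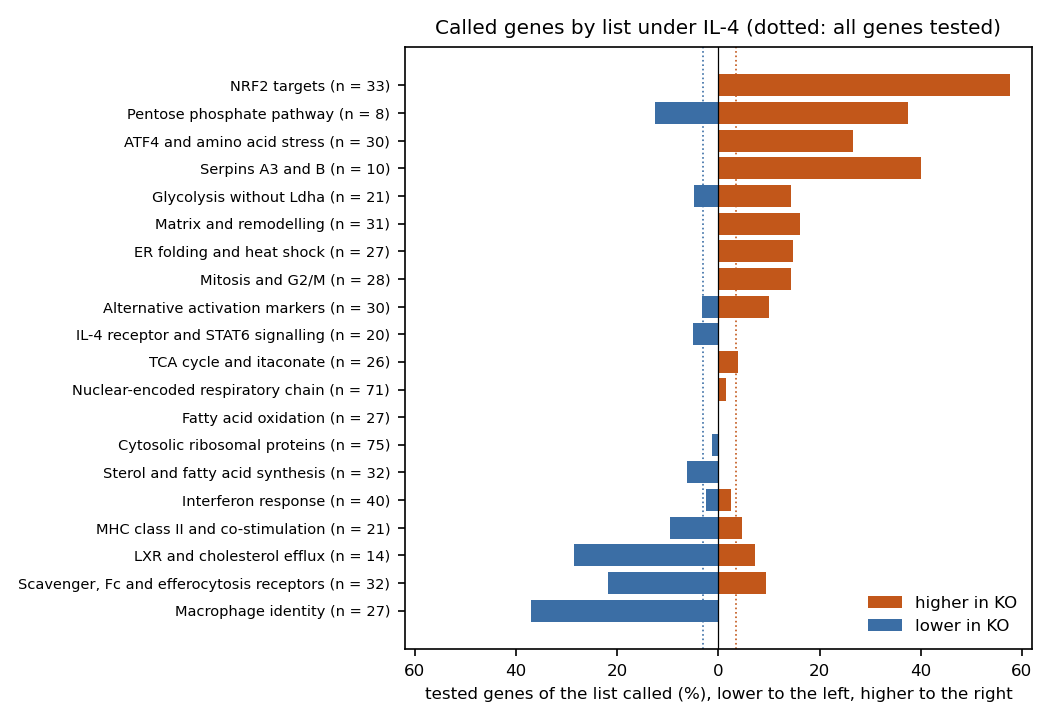
Bars give, for 20 gene lists, the percentage of tested genes called higher (orange, to the right) and lower (blue, to the left) in KO under IL-4, with the number tested in parentheses. Dotted lines mark 3.46% higher and 3.13% lower over all genes. NRF2 targets have the longest bar to the right and macrophage identity genes the longest to the left.

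The comparison also asks how KO cells carried the IL-4 program itself. Most of its genes did not pass the test, which pooled the spread over all 18 libraries. Several markers were low without IL-4, with untreated WT means of 4.01 for Arg1, 0.301 for Chil3 and 12.7 for Pdcd1lg2. Spread at such low counts can widen the SE of these genes, so a marker that did not pass is not shown to be unchanged. Of 30 alternative activation markers 3 rose, 1 fell and 26 did not pass (10% higher and 3.33% lower, against 3.46 and 3.13% of all genes), with a median of -0.01. Among 20 genes of IL-4 receptor and STAT6 signalling none rose, 1 fell and 19 did not pass, again with a median of -0.01. Arginase 1 (Arg1), which turns arginine into ornithine, stood at 7319, 4200.0 and 5491 in WT and at 5299, 3792 and 6152 in KO libraries. The groups overlapped (-0.15 ± 0.478, adjusted p = 0.894). Both were far above the mean of 4.01 in untreated WT libraries. Chil3, a chitinase-like lectin gene, overlapped as well, at 7005, 4587 and 5232 in WT and 6242, 2316 and 6313 in KO libraries (-0.29 ± 0.641, adjusted p = 0.836).

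Mrc1, the mannose receptor gene, was the marker that fell. It stood at 62567, 57764 and 58654 in WT and at 24836, 31307 and 32834 in KO libraries, with no overlap (-1.02 ± 0.249, adjusted p = 0.0209, and 0.0938 without KO replicate 1). The Mrc1 change was -0.85 in untreated cells (adjusted p = 0.0999) and -0.77 under IFN-gamma (0.028). By the interaction test of limma the difference of its IL-4 change from either did not pass (adjusted p = 0.999 and 0.739), which does not show the changes to be equal. The lectin genes Clec10a (-0.62 ± 0.3, adjusted p = 0.242) and Mgl2 (-0.52 ± 0.351, adjusted p = 0.414) did not pass. KO and WT libraries overlapped in Mgl2 but not in Clec10a, which was lower in KO. Retnla, which encodes the secreted protein RELM-alpha, stood at 342, 1675 and 1185 in WT and at 512, 540.0 and 387 in KO libraries (-0.89 ± 0.439, adjusted p = 0.251). Its WT libraries spread widely around the KO ones, and without WT replicate 1 it passed (adjusted p = 0.0157). Pdcd1lg2, the ligand PD-L2, was at 1275, 1311 and 1347 in WT and 769, 988 and 951 in KO libraries without overlap. It did not pass with limma (-0.55 ± 0.376, adjusted p = 0.424) but did with DESeq2 (0.00752).

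Of 3 chemokines linked to IL-4, Ccl22 rose, and Ccl17 and Ccl24 did not pass. Ccl22, a ligand of CCR4, stood at 486, 374 and 661 in WT and at 2054, 2312 and 1512 in KO libraries (1.96 ± 0.302, adjusted p = 0.000768). Every KO library was above every WT library, and the call held without any single library and with the IL-4 libraries alone. Ccl22 was also higher in KO in untreated cells (1.41, adjusted p = 0.0194) and under IFN-gamma (2.57, 1.04e-05). By the interaction test of limma the difference of its IL-4 change from either did not pass (adjusted p = 0.992 and 0.455). This does not show the changes to be equal. Ccl17, another CCR4 ligand, was low, at 15.3, 29.5 and 29.4 in WT and 118, 77.3 and 40.1 in KO libraries (1.55 ± 0.582, adjusted p = 0.121). Ccl24, an eosinophil attractant, was low too, at 29.5, 13.1 and 46.3 in WT and 105, 125 and 77.1 in KO libraries (1.89 ± 0.691, adjusted p = 0.111). Neither pair overlapped, and both passed with DESeq2 (0.0329 and 0.0123) and with a pseudocount of 5 (0.0122 and 0.00527). The other markers that rose were the transcription factor gene Tfec (0.48 ± 0.1, adjusted p = 0.00753, and 0.0685 with the IL-4 libraries alone) and the ribonuclease gene Rnase2a (1.26 ± 0.306, adjusted p = 0.02). Rnase2a did not pass without WT replicate 1 (0.0543) or without KO replicate 1 (0.0545), 2 (0.112) or 3 (0.0503).

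Upstream, the genes of IL-4 signalling mostly did not pass. Stat6 stood at 7295, 7502 and 7793 in WT and at 7479, 7788 and 7821 in KO libraries (0.03 ± 0.0566, adjusted p = 0.796). The receptor chain gene Il4ra did not pass (-0.25 ± 0.0905, adjusted p = 0.106), though every KO library lay below every WT library. Pparg, a lipid-sensing partner of STAT6, overlapped and did not pass (0.14 ± 0.166, adjusted p = 0.683). Irf4, which acts downstream, stood at 577, 725 and 815 in WT and 993, 1071 and 986 in KO libraries without overlap (0.54 ± 0.222, adjusted p = 0.16, and 0.016 with DESeq2). The gene that fell was the kinase Tyk2 (-0.24 ± 0.0685, adjusted p = 0.0486). Its call was lost with edgeR (0.0501), with the IL-4 libraries alone (0.336) and without KO replicate 1 (0.187), KO replicate 2 (0.0902), WT replicate 1 (0.146) or WT replicate 3 (0.117), while 2 genes of the list fell without KO replicate 3 and 3 without WT replicate 2.

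A pair of marker promoters is printed to show the element that STAT6 recognizes, with the bases that match TTCNNNNGAA in capitals (RefSeq, GRCm38.p6, read along the gene). The pattern is its own reverse complement, so both strands are covered.
Ccl17, chr8:94810203-94810452, plus strand: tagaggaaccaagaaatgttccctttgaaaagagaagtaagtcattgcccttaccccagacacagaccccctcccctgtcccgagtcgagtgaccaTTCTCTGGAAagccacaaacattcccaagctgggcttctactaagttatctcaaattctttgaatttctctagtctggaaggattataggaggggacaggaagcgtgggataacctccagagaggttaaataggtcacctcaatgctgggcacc
Retnla, chr16:48842359-48842608, plus strand: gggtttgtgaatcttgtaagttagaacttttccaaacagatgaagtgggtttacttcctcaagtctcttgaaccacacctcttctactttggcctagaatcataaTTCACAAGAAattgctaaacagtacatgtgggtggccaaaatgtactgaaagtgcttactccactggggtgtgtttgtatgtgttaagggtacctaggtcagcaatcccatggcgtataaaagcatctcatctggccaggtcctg

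The element began 154 and 145 bases before the RefSeq start of Ccl17 and Retnla. The Retnla window ends at 48842608, past the gene start of 48842551 given with the counts, so the distance depends on the start used. Retnla was also the gene that did not match in the check of the build. The element was found in 9 of 24 windows of tested alternative activation markers (37.5%) and in 4.73% of the windows of all tested genes. Those 9 windows belong to 7 genes. Windows of genes that rose in KO held it in 3.98% and those of genes that fell in 4.63%. Both genes shown carry it, and their means differed in opposite directions between KO and WT without passing the test. Tfec, a marker that rose, carries it too and is not shown.

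**Figure D4:**
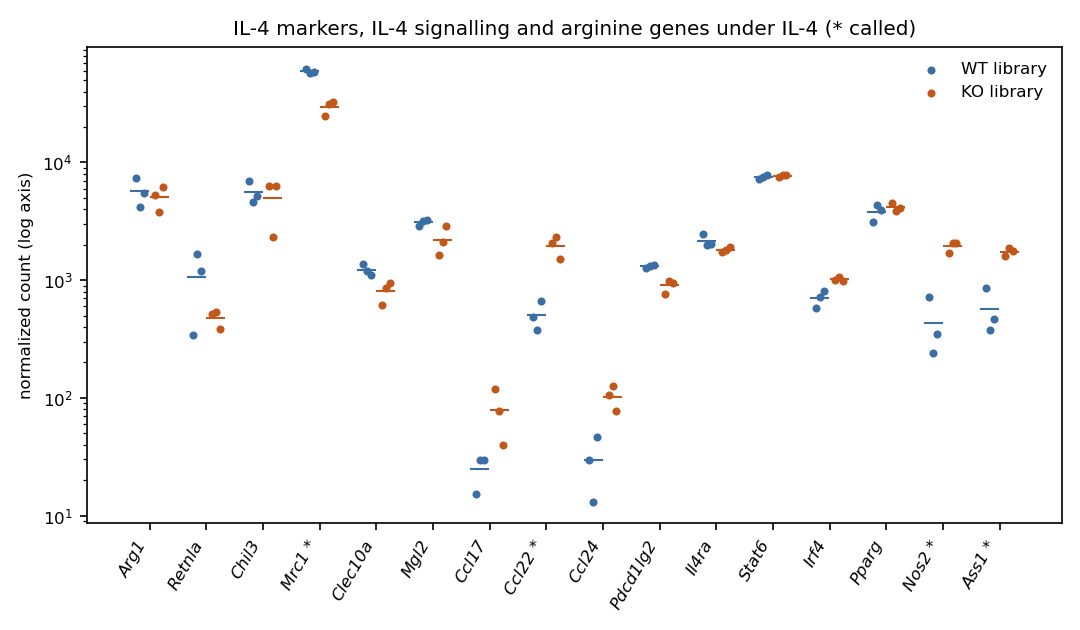
Points are normalized counts of single IL-4 libraries (log axis), blue for WT and orange for KO, with lines at the group means. Asterisks mark called genes: Mrc1 sits lower in KO, and Ccl22, Nos2 and Ass1 sit higher. Arg1, Chil3, Stat6 and Pparg overlap.

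In arginine and polyamine metabolism 2 of 18 genes rose and 16 did not pass, with a median of 0.06. Nos2, the inducible nitric oxide synthase that uses arginine in competition with arginase, stood at 719, 243 and 348 in WT and at 1699, 2072 and 2072 in KO libraries (2.30 ± 0.25, adjusted p = 2.81e-05). The highest WT library, replicate 1, remained below the lowest KO library. Ass1, which rebuilds arginine from citrulline, went from 857, 374 and 469 to 1609.5, 1865 and 1755 (1.71 ± 0.257, adjusted p = 0.000649). The Nos2 change was 0.12 in untreated cells (adjusted p = 0.942) and 0.50 under IFN-gamma (0.145). The IL-4 change was larger than that under IFN-gamma by the interaction test of limma (adjusted p = 0.00601), and the difference from untreated cells did not pass (0.0668).

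Genes of macrophage identity leaned downward. Of 27 tested none rose, 10 fell (37.0%, against 3.13% of all genes) and 17 did not pass, with a median of -0.31. The count rests on single libraries: 3 fell without KO replicate 1 and 6 without KO replicate 3 or WT replicate 3. With the IL-4 libraries alone 1 fell, and this was Lyz2, so no other gene of the list passed there. The summed level of the list without Lyz2 was 781892 to 846136 in WT and 627094 to 739656 in KO libraries. Fcgr1, the high-affinity IgG receptor, stood at 4962, 4393 and 3963 in WT and at 1571, 2890.0 and 2557 in KO libraries (-0.96 ± 0.159, adjusted p = 0.0014). Mertk, which recognizes dying cells, fell from 1629.7, 1049 and 1222 to 567, 793 and 880.1 (-0.80 ± 0.15, adjusted p = 0.00396). Adgre1, the F4/80 antigen, was lower in every KO library, at 37459, 43788 and 38928 against 54784, 64219.7 and 58222 (-0.56 ± 0.128, adjusted p = 0.0142, and 0.0625 without KO replicate 1). With the IL-4 libraries alone none of these 3 passed (adjusted p = 0.117 for Fcgr1, 0.164 for Mertk and 0.098 for Adgre1).

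All 4 Fc gamma receptor genes tested, whose products bind the tails of IgG antibodies, fell, Fcgr1 among them. In the list of scavenger, Fc and efferocytosis receptors 7 of 32 fell (21.9%, against 3.13% of all genes), 3 rose (9.38%, against 3.46%) and 22 did not pass. With the IL-4 libraries alone 4 fell and 0 rose. Without WT replicate 3 the number that rose was 1. Fcgr4, an activating receptor, stood at 1275, 948 and 935 in WT and at 409, 500.3 and 509.9 in KO libraries (-1.14 ± 0.137, adjusted p = 8.52e-05). Fcgr3, another activating receptor, went from 14111, 16656 and 16734 to 10826, 10210.4 and 9340.4 (-0.64 ± 0.0847, adjusted p = 0.000195). Fcgr2b, the inhibitory receptor, went from 14839.8, 12905 and 12382 to 7335, 7122 and 7036 (-0.90 ± 0.132, adjusted p = 0.000519). None of the 3 had a KO library in the WT range, so activating and inhibitory members were lower alike. Siglec1, a sialic acid lectin of tissue macrophages outside these lists, fell from 7779, 4928 and 6295 to 1144, 2895 and 3202 (-1.50 ± 0.326, adjusted p = 0.0103, and 0.152 with the IL-4 libraries alone).

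Lipid export genes driven by LXR, the oxysterol receptor, were among the abundant transcripts that fell. Of 14 tested 4 fell (28.6%, against 3.13% of all genes), 1 rose (7.14%, against 3.46%) and 9 did not pass, with a median of -0.13. Without KO replicate 1 the number that fell was 2, and with the IL-4 libraries alone 0. Apoe, which carries cholesterol out of macrophages, stood at 61430.2, 124823 and 115774 in WT and at 38415, 34534 and 19132 in KO libraries (-1.71 ± 0.344, adjusted p = 0.00608). WT replicate 1 was the lowest of the WT libraries and lay nearer to the highest KO library than to the other WT libraries. Pltp, a phospholipid carrier, went from 13205, 16082 and 17061 to 8367, 10766 and 7048 (-0.84 ± 0.152, adjusted p = 0.00305). The cholesterol pump gene Abca1 fell by 0.76 ± 0.17 (adjusted p = 0.0118, and 0.0665 without KO replicate 1). Of 22 genes of PPAR-gamma and lipid storage 3 fell and 2 rose, and 1 rose without KO replicate 1 or WT replicate 2 and 0 with the IL-4 libraries alone. Fabp5, a fatty acid carrier, stood at 16783, 17587 and 19110.5 in WT and at 11853, 11067 and 9279.7 in KO libraries (-0.74 ± 0.117, adjusted p = 0.00098), and Rxra, the shared partner of LXR and PPAR-gamma, fell by 0.51 ± 0.087 (0.00193). With the IL-4 libraries alone adjusted p was 0.0846 for Apoe, 0.0853 for Pltp and 0.200 for Abca1. Sterol and fatty acid synthesis had 2 of 32 genes lower and none higher, and 0 were lower with the IL-4 libraries alone or without KO replicate 2 or 3 or WT replicate 1 or 3.

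Among named genes whose mean reached 100 in 1 group with no overlap between the groups, the largest increases were in Met, Serpinb9b, Rbp4, Ednrb and Uchl1. Met, the receptor of hepatocyte growth factor, stood at 28.4, 26.2 and 25.0 in WT and at 483, 207 and 574 in KO libraries (3.81 ± 0.42, adjusted p = 3.35e-05). Serpinb9b, of the granzyme-inhibitor family, went from 139, 91.8 and 85.0 to 1577, 853 and 1866 (3.71 ± 0.395, adjusted p = 2.45e-05). Its relatives Serpinb9 (1.38 ± 0.106) and Serpinb6b (1.02 ± 0.119) rose too, with adjusted p = 4.66e-07 and 6.38e-05. Of 10 serpins tested 4 rose (40%, against 3.46% of all genes) and none fell. The members of this gene cluster are similar, so reads could be split between them. Rbp4, which carries retinol, went from 76.5, 23.0 and 40.0 to 516, 292 and 468 (3.29 ± 0.527, adjusted p = 0.0011).

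Ednrb, an endothelin receptor gene, stood at 272, 128 and 179 in WT and at 1384, 1525 and 1508 in KO libraries (2.99 ± 0.234, adjusted p = 5.05e-07). Uchl1, a ubiquitin hydrolase gene best known from neurons, went from 269.8, 161 and 247 to 1763, 1278 and 1311 (2.70 ± 0.2, adjusted p = 2.85e-07). Of the NDRG family, Ndrg4 rose by 2.60 ± 0.387 and Ndrg2 by 2.37 ± 0.265 (adjusted p = 0.000594 and 3.91e-05). Met, Serpinb9b, Rbp4, Ednrb, Uchl1, Ndrg4 and Ndrg2 were all called with the IL-4 libraries alone and without any single library. Cyp1b1, a target of the aryl hydrocarbon receptor, went from 342, 184 and 186 to 1444, 844 and 1165 (2.30 ± 0.453, adjusted p = 0.00527).

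Matrix proteases and an integrin rose among 5 of 31 matrix genes (16.1%, against 3.46% of all genes), with none lower and a median of 0.36. With the IL-4 libraries alone 2 rose. The macrophage elastase gene Mmp12 was among the most abundant called transcripts, at 81278, 78252 and 92452 in WT and 247041, 152803 and 193004 in KO libraries (1.21 ± 0.211, adjusted p = 0.0023). The collagenase gene Mmp13 stood at 3292, 2003 and 1899 in WT and 9918, 5128 and 13534 in KO libraries (1.93 ± 0.342, adjusted p = 0.00257, and 0.0678 with the IL-4 libraries alone). Itgb8, an integrin chain that activates TGF-beta, went from 113, 197 and 194 to 452, 397 and 534 (1.49 ± 0.259, adjusted p = 0.0023). Beside this, the summed level of 13 stromal and fibroblast markers was 343 to 1236 in WT and 717 to 2133 in KO libraries. None of the 11 of these markers tested was called, their median change was 1.06, and no count was listed for Lum and Thy1. Their part in the matrix result was not tested.

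Cytokine and receptor genes were mixed. Of 36 inflammatory cytokines and chemokines 2 rose and 3 fell. The number that rose was 1 with the IL-4 libraries alone or without KO replicate 1 or WT replicate 2 and 4 without WT replicate 1, and 1 fell without KO replicate 1. Il1f9, an interleukin 36 gene, was barely read in WT (1.09, 6.56 and 3.13) and stood at 76.6, 76.2 and 62.5 in KO libraries (4.17 ± 0.396, adjusted p = 6.05e-06). The size of that change depends on the pseudocount. Ccl6, a CC chemokine abundant in macrophages, fell from 19983, 15748 and 16412 to 8736, 10339 and 9252 (-0.88 ± 0.131, adjusted p = 0.000617). Cd83, a co-stimulatory molecule, fell from 3558, 4407 and 3975 to 1781, 2605 and 1906 (-0.94 ± 0.165, adjusted p = 0.00245). Of 40 interferon response genes 1 rose and 1 fell, with a median of -0.23, and neither call was made with the IL-4 libraries alone. Leaving out single libraries gave 0 to 2 higher and 1 to 4 lower. Cmklr1, the chemerin receptor, went from 357, 466 and 517 to 184, 179 and 220.3 (-1.18 ± 0.156, adjusted p = 0.000195).

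By the same rule the largest decreases after Lyz2 and Ldha were in Itga9 and Kcnj10. The integrin chain gene Itga9 went from 168, 105 and 80.6 to 30.2, 43.9 and 27.9 (-1.72 ± 0.345, adjusted p = 0.00591, and 0.0768 with the IL-4 libraries alone). Selenop, a selenium carrier, stood at 13093, 16531 and 14834 in WT and at 5909, 7261 and 6418 in KO libraries (-1.18 ± 0.157, adjusted p = 0.000214). The potassium channel gene Kcnj10 fell by 1.72 ± 0.221 and Ifitm6, of the interferon-induced transmembrane family, by -1.30 ± 0.171 (highest adjusted p of the pair 0.000195). Cd4, which mouse macrophages can transcribe, was at 98.3, 125 and 122 in WT and 25.2, 48.0 and 40.7 in KO libraries (-1.61 ± 0.334, adjusted p = 0.0074, and 0.0601 with the IL-4 libraries alone). The summed level of 5 lymphocyte markers, Cd4 among them, was 127 to 151 in WT and 67.5 to 104 in KO libraries.

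Further lists held few called genes. Of 27 genes of protein folding and heat shock 4 rose (14.8%, against 3.46% of all genes) and none fell, with a median of 0.11. Without KO replicate 1 or WT replicate 1, 2 rose, and with the IL-4 libraries alone 1. The co-chaperone gene Hsph1 stood at 3312, 2944 and 3438 in WT and at 5121, 4439 and 4840.2 in KO libraries (0.57 ± 0.0737, adjusted p = 0.000177). In iron handling 2 of 18 rose (11.1%, against 3.46% of all genes) and none fell. Beside Hmox1 this was the iron exporter gene Slc40a1, at 684, 518 and 475 in WT and 1129, 1090.4 and 1189.7 in KO libraries (1.04 ± 0.158, adjusted p = 0.000701). Of 28 mitosis genes 4 rose (14.3%, against 3.46% of all genes), with a median of 0.43. Without KO replicate 1, WT replicate 2 or WT replicate 3, 2 rose, and with the IL-4 libraries alone 0. Of 75 cytosolic ribosomal protein genes 1 fell, Rpl3, with a median of -0.02, and 0 with the IL-4 libraries alone or without KO replicate 2 or 3 or WT replicate 2 or 3.

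The same KO and WT animals can be set side by side in the other treatments, where 283 genes were called in untreated cells (1.98%) and 3980 under IFN-gamma (27.9%). Of the 941 genes called under IL-4, 187 were also called in untreated cells, all in the same direction. They are 19.9% of the IL-4 genes and 66.1% of the untreated ones. Under IFN-gamma 581 were also called, 553 in the same direction, which is 61.7% of the IL-4 and 14.6% of the IFN-gamma genes. In all 3 treatments 135 were called, and 308 were called under IL-4 only by this threshold. The libraries are separate but come from the same animals, so these shares are a description.

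The test of the difference itself gave 1 gene against untreated cells (0.00700% of those tested) and 822 against IFN-gamma (5.75%), and 774 genes had an unadjusted p under 0.05 in the first. The second count was 520 without KO IL-4 replicate 2 and 541 without WT IL-4 replicate 3, and the first 2 without WT replicate 1 and 3 without WT replicate 2. DESeq2 called 21 genes in the first and edgeR 1. With the animal as a random block over treatments limma called 4 genes in the first and 1432 in the second. The single gene was Gm6192, a processed pseudogene on chromosome 19 (7959743 to 7961107). It stood at 69.9, 82.0 and 80.0 in WT and at 378, 353 and 337 in KO libraries under IL-4 (2.19 ± 0.162, adjusted p = 2.85e-07). Without treatment its means were 353.6 in WT and 327 in KO, and under IFN-gamma 61.1 and 49.1. The KO cells under IL-4 thus stood at the untreated level and the WT cells near that under IFN-gamma (interaction adjusted p = 0.000176 against untreated and 2.62e-05 against IFN-gamma). Reads of a processed pseudogene can come from its parent gene, so its level is uncertain.

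Against IFN-gamma some differences were larger under IL-4. Rbp4 changed by 3.29 ± 0.527 under IL-4 and by 0.48 under IFN-gamma (interaction adjusted p = 0.0338). It was hardly read outside IL-4, with means of 0 in WT and 0.577 in KO libraries both untreated and under IFN-gamma. The interaction of Rbp4 could therefore hardly come out otherwise. Serpinb9 changed by 1.38 ± 0.106 and 0.24 (0.000285), and Gsr by 1.12 ± 0.0677 and 0.51 (0.00121). Others were smaller under IL-4: the Ednrb change under IL-4 differed from that under IFN-gamma by -2.01 (0.00164), and Itgb8 changed by 1.49 ± 0.259 and 4.01 (0.000541) and Mmp12 by 1.21 ± 0.211 and 3.34 (0.000449). Fabp5 went in opposite directions, -0.74 ± 0.117 under IL-4 and 0.88 under IFN-gamma (3.72e-05).

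**Figure D5:**
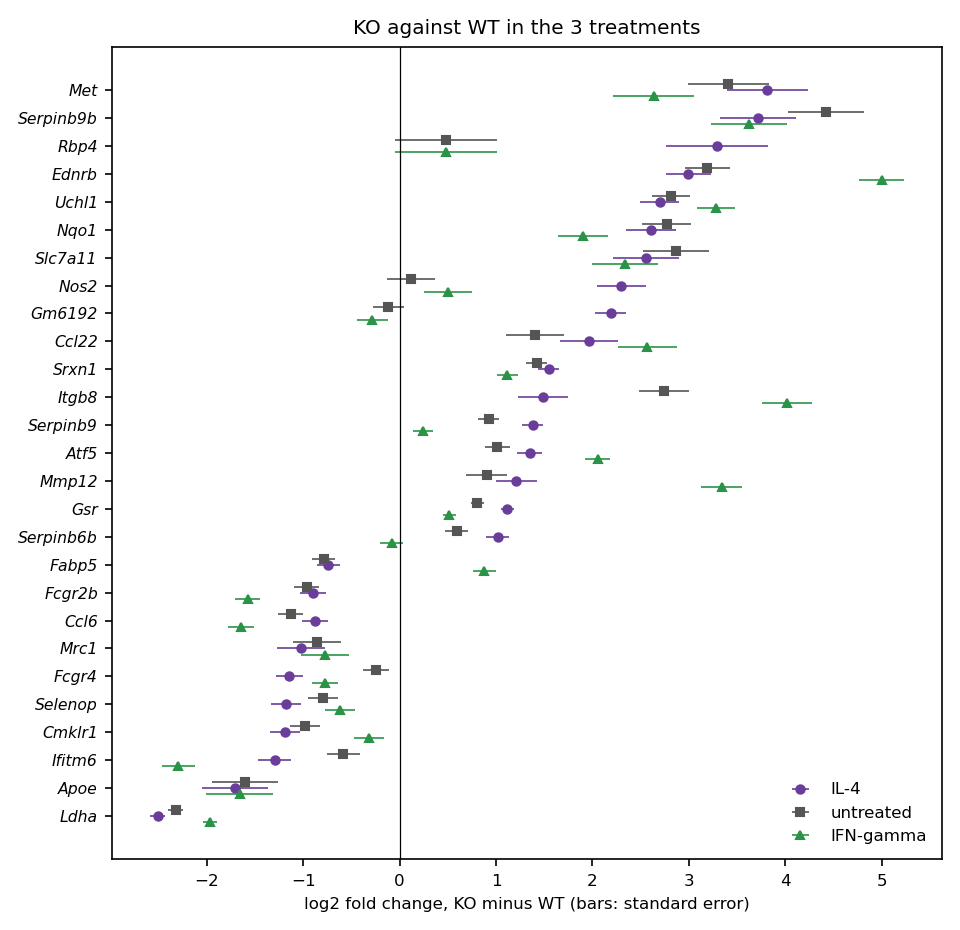
Each row is a gene named in the text, with its log2 fold change, KO minus WT, under IL-4 (circles), without treatment (squares) and under IFN-gamma (triangles). Bars are standard errors of the fit. The circles of Rbp4, Nos2 and Gm6192 lie farther to the right than their squares and triangles, whereas Met, Serpinb9b, Uchl1 and Slc7a11 lie to the right in each treatment. Rbp4 was hardly read outside IL-4.

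Genes near the Ldha and Lyz2 loci were counted, since animals that carry an altered allele can share neighbouring sequence. Within 5 Mb of Ldha 9 of 109 tested genes were called (8.26%, against 6.59% overall), among them Atf5. Within 5 Mb of Lyz2 5 of 44 were called (11.4%). One of these was Mdm2, the p53 ligase gene, at 4388, 3961 and 3769 in WT and 6788, 6314 and 7548 in KO libraries (0.77 ± 0.0813, adjusted p = 2.4e-05). Whether the position of these genes bears on their change was not tested.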

How the data were processed

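RNA was measured by sequencing in 18 libraries from bone marrow macrophages, 3 in each of 6 groups (KO or WT, untreated, IL-4 or IFN-gamma). The submitters' processing notes name STAR 2.5, HTSeq 0.6, the build GRCm38, and DESeq2 and edgeR without a version. Strandedness is not given in the sources, so reads of overlapping antisense genes cannot be told apart. The deposited table of the authors holds normalized counts (unit: signal, counts divided by a size factor per library) in 21428 rows with 21380 gene identifiers, of which 34 stand on several rows and were used once. Whole reads could be recovered from the step between low values for 100.0% of values (tolerance 0.1). The IL-4 libraries then held 9.77 to 49.5 M reads, so low genes are measured least precisely in WT replicate 2.

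Genes that reached a normalized count of 10 in 3 or more of 18 libraries (14288) were tested as log2(value + 1), a pseudocount of 1 that understates the change of low genes. limma 3.58.1 (R 4.3.3) fitted 1 mean per group with a trended variance and 12 residual degrees of freedom, two-sided, with Benjamini-Hochberg adjustment and a threshold of 0.05. The same fit gave the interaction tests. The steps were tested on simulated data. The libraries of a group carry different animal codes, and replicates differed by a chi-square per gene of 26.7 to 66.3, far above sampling noise. KO and WT libraries with the same number correlated at -0.212, 0.0592 and -0.141 in their deviations from the group means. These 3 values showed no clear pairing by number but cannot exclude one, and the number entered only as an alternative. The same animal's libraries in different treatments correlated with a median of 0.174 in 18 pairs.

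Alternatives were other pseudocounts and filters, TMM and quantile scaling, other samples or blocks in the fit, each IL-4 library left out, and edgeR 4.0.16 and DESeq2 1.42.0 on the recovered reads. Named genes were Ldha, Ldhb and Lyz2, 14 markers of IL-4 action, the 15 largest increases and decreases among called genes whose mean reached 100 without overlap, up to 4 called genes per list by adjusted p, and genes of the interaction with untreated cells. Others, such as Gclm, Prdx1, Cat, Txnrd1, Adgre1, Cd68, Csf1r and Mdm2, were chosen after their values were seen. Members and lists were chosen with earlier results of these data known. Promoter windows are the 250 bases before each start in RefSeq. As a check of the build, the bases after the window were compared with GENCODE transcripts of 12 genes and matched in 11, all but Retnla.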

Additional observations from a re-analysis of the deposited data

Results flagged for a closer look

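In each gene below the KO minus WT difference under IL-4 was another one than in a second treatment, by the interaction test of limma. Values are the IL-4 difference minus the other one on the log2 scale, with the adjusted p. All come from the comparison with IFN-gamma, except that Gm6192 also differed from untreated cells, by 2.31 (0.000176) beside 2.48 against IFN-gamma (2.62e-05).

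Among the NRF2 targets the difference was higher under IL-4 in Gclm (0.93, adjusted p = 0.0102), Prdx1 (0.88, 0.00361), Txnrd1 (0.91, 0.00358), Gsr (0.60, 0.00121), Me1 (0.64, 0.0484) and G6pdx (0.45, 0.00938). Counted separately in each of the 3 treatments, 19 of the 33 NRF2 targets tested were higher in KO, not necessarily the same genes. Under IFN-gamma 4 were lower. The difference was also higher in the secreted and inhibitor genes Rbp4 (2.81, 0.0338, hardly read outside IL-4), Serpinb9 (1.14, 0.000285) and Serpinb6b (1.10, 0.000891). So were those of Nos2 (1.80, 0.00601) and Cycs (0.66, 0.0234).

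A difference above 0 was found too in genes that fell in KO under IL-4. These were Lyz2 (0.61, 0.0196), Ccl6 (0.77, 0.0207), Fcgr2b (0.68, 0.0387), Ifitm6 (1.00, 0.0207) and the immediate early gene Nr4a1 (1.08, 0.0274), whose decreases were smaller under IL-4 than under IFN-gamma.

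The difference was below 0 in the other genes. It stood at -2.53 in Itgb8 (0.000541), -2.13 in Mmp12 (0.000449), -2.01 in Ednrb (0.00164) and -1.62 in Fabp5 (3.72e-05). Smaller values were those of Cmklr1 (-0.86, 0.0278), Atf5 (-0.70, 0.031), Pdk2 (-0.58, 0.036), Cd68 (-0.56, 0.0239), Rxra (-0.46, 0.0369) and Ldha itself (-0.54, 0.00627).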

How the results depend on the processing

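The 941 calls under IL-4 moved most with the samples fitted. The IL-4 libraries alone gave 128 (83 higher, 45 lower, 73 of at least 2-fold), and also leaving out WT replicate 2, an alternative chosen after seeing the data, gave 34 (28, 6 and 31). Leaving out each IL-4 library in turn gave 497 to 1009 calls, 263 to 542 higher, 234 to 537 lower and 162 to 359 of at least 2-fold. DESeq2 called 694 lower, and a mean of at least 50 left 138 of at least 2-fold. Replicate number as a replicate block gave 1059 calls (568 higher, 491 lower). The 1 gene that differed from untreated cells became 2 with no filter, quantile scaling, no variance trend or the replicate block, 3 with a pseudocount of 5, 4 with the animal as a random block, 21 with DESeq2, and 1 to 3 without single libraries. The 822 that differed from IFN-gamma became 1432 with the animal block, 1265 with DESeq2 and 520 to 1095 without single libraries. The causes were not tested. All other settings stayed within 1.5 times these counts. Of 1822 values of the 96 genes under the alternatives, 1704 kept their side of the threshold, 108 lost it, 10 gained it and 0 called values changed sign. Of 81 called genes, 73 were called without any single library. WT replicate 2, with 9.77 M reads, limits the precision of low genes.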

Other observations

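Several gene groups outside the results above held few called genes. With the IL-4 libraries alone the counts below fell to 1 higher and 0 lower for integrins, to 0 in both directions for eicosanoid, lysosome and immediate early genes, and to 0 lower for HIF targets and Toll-like receptors. Leaving out single libraries gave 3 to 5 integrin genes higher and 1 to 3 lower, 0 to 2 lysosome genes higher and 2 or 3 lower, and 0 or 1 immediate early genes higher and 1 to 3 lower. Of 23 integrin and adhesion genes 3 rose and 2 fell, among them Itgb7, a leukocyte integrin chain, which rose from 1486, 577 and 579.5 to 2606, 1961 and 3494 (1.72 ± 0.36, adjusted p = 0.00798 with limma, and 0.111 with the IL-4 libraries alone). Of 20 eicosanoid genes 2 rose and 1 fell, and 5 rose without WT replicate 1 and 1 without KO replicate 3. Ptges, which makes prostaglandin E2, stood at 106, 52.5 and 65.0 in WT and at 178, 150.4 and 207 in KO libraries (1.30 ± 0.292, adjusted p = 0.0125, and 0.111 with the IL-4 libraries alone). Ccr7, the receptor that guides cells to lymph nodes, was low and rose from 9.83, 6.56 and 5.0 to 57.4, 44.9 and 34.6 (2.53 ± 0.543, adjusted p = 0.00925).

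Of 44 lysosome genes 2 rose and 3 fell, with a median of -0.04. The protease gene Lgmn fell from 33457, 35364 and 33579.9 to 24891, 25206 and 22701 (-0.49 ± 0.0813, adjusted p = 0.0014, and 0.0713 with the IL-4 libraries alone). Of 26 immediate early genes 1 rose and 2 fell, and Nr4a1, a nuclear receptor induced within an hour of many stimuli, stood at 165, 203 and 216 in WT and 93.7, 113 and 99.5 in KO libraries (-0.92 ± 0.195, adjusted p = 0.00855, and 0.0838 with the IL-4 libraries alone). H1f0, a linker histone gene of cells that have left the cycle, fell from 3116, 2233 and 2430.0 to 1523, 1514 and 1445 (-0.78 ± 0.173, adjusted p = 0.0116). Of 25 targets of the hypoxia factor HIF outside glycolysis 1 rose, Nos2, and 3 fell, with a median of 0.05. The number lower was 1 without KO replicate 1 or 2 or WT replicate 3. Toll-like receptor and inflammasome genes had 2 of 35 lower and none higher, with a median of -0.15, and 0 to 4 were lower when single libraries were left out.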
